A study of Sparus aurata with 53 samples.

Results

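Among 13940 probes measured in whole larvae of the gilthead sea bream (Sparus aurata), 79 followed the day with a fitted maximum from 9 h to under 12 h zeitgeber time, late in the light phase. They included the activator pair of the circadian clock, bmal1 and clock, a cyclin-dependent kinase (CDK) inhibitor, an HSP70 and an HSP90 chaperone, catalase and several mitochondrial proteins. The members were chosen by a fit of 1 cosine and 1 sine of period 24 h to the levels of all 53 arrays. A gene entered if this fit took up at least 0.3 of its variance (R2), if the fitted amplitude was at least 0.4 on the log2 scale, if it was well above background on at least 27 arrays and if the fitted peak lay in the window. The first 3 conditions alone were met by 892 genes, here called rhythmic, and 8.86% of them peaked in this window. Amplitude, R2, peak and the order of the 9 sampling times therefore describe how the members were chosen and were not tested.

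Each array held the RNA of 1 whole larva aged 30 days, reared under a daily cycle of 12 h light and 12 h dark with light on at 0 h, and fed rotifers and later Artemia. Larvae were taken every 3 h from 0 h to 24 h, 6 at each time except for 5 at 12 h, and no larva was treated. The labels do not tie larvae to tanks, so the spread among larvae of 1 time may hold a tank share that was not measured. A level is the log2 of the probe signal minus the 75th percentile of its array, so 0 marks the level that 75% of spots do not reach, and it compares a gene with itself only. RNA came from the whole body, where fewer cells of a type and less RNA per cell cannot be told apart. Per array, 74.2% to 94.3% of the probes exceeded background clearly, arrays of 1 sampling time correlated at 0.918 or more, and the median of all probes moved by 0.15 on the log2 scale over the day, from -2.19 at 6 h to -2.04 at 21 h. Tissue markers of the whole body were few among the described probes. The cone and rod phosphodiesterase gamma subunits (retina), the ileal bile acid cotransporter (intestine), 2 genes of the muscle synapse and a collagen were well above background on 51 to 53 arrays, and none of them was a member. The immune list held immunoglobulin superfamily member 5, an adhesion protein that was a member, and a DNA repair protein that was not. No described probe stood for liver.

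The circadian clock of vertebrates is a loop of transcription in which the proteins CLOCK and BMAL1 bind DNA as a pair and switch on period and cryptochrome genes, whose products then shut the pair down. Fish differ from mammals in that many of their tissues sense light directly. Cell division in fish larvae is commonly gated to certain hours of the day, with entry into mitosis driven by CDK1 together with cyclins and held back by CDK inhibitors. Descriptions were at hand for 277 probes, taken by clone code from the tables of the study, and 29 of the 79 members had one. Since those tables list genes picked on these same larvae, the share of members with a description and the counts by function are no independent evidence.

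The 79 members as a whole were low around the end of the dark phase and high late in the light phase. With each gene centred on its own mean, their mean level stood at -0.61 ± 0.06 (SD, n = 6) when light came on, at -0.14 ± 0.18 by 3 h and at 0.33 ± 0.09 by 6 h. It reached 0.69 ± 0.05 in the larvae of 9 h and 0.68 ± 0.09 (n = 5) in those of 12 h. Light went off at 12 h, and the titles of the 12 h samples give a clock time shortly before that. In the dark it went from 0.49 ± 0.10 after 3 h to -0.05 ± 0.15 after 6 h and -0.61 ± 0.12 after 9 h, and it ended at -0.65 ± 0.09 in the larvae of 24 h. The larvae of 9 h and 12 h lay between 0.56 and 0.81 and those of 21 h, 24 h and 0 h between -0.79 and -0.43, with no overlap. The levels of 9 h and 12 h overlapped, as did those of 21 h, 24 h and 0 h. The slides were scanned in 3 scans, and only scan 1 (32 arrays) held all 9 times, with the highest mean at 12 h (0.71) and the lowest at 21 h (-0.62). The 15 arrays of scan 2 lacked 12 h and had the highest mean at 9 h (0.63) and the lowest at 24 h (-0.68). Scan 3 held 1 larva at each of 6 times and none of 0 h, 3 h or 6 h, so the rise in the light was not sampled there; its highest and lowest larvae were those of 9 h (0.78) and 24 h (-0.77).

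**Figure D1:**
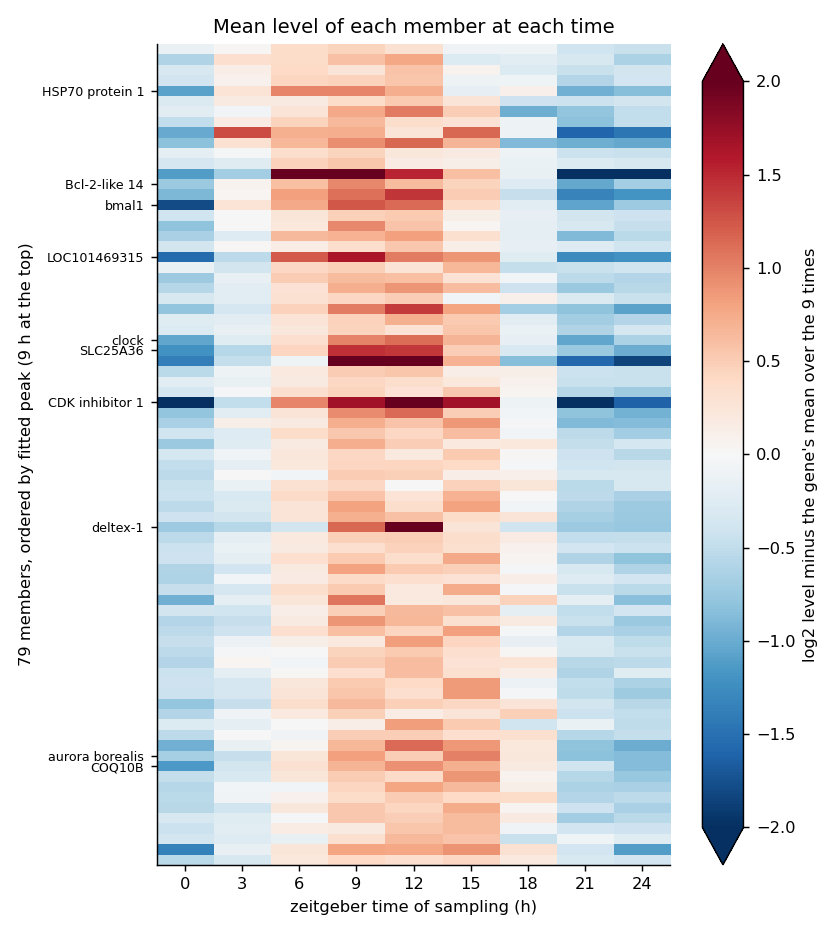
Mean level of the 79 members (rows, ordered by fitted peak with the earliest at the top) at the 9 sampling times (columns, zeitgeber hours), as log2 level minus the mean of the gene over the 9 times. Red cells are above and blue cells below the mean of the gene; 77 members had their highest mean at 9, 12 or 15 h and 76 their lowest at 0, 21 or 24 h.

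Single members varied in how large and how late their maximum was. In 35 members the mean of 12 h was the highest, in 21 members that of 9 h and in 21 members that of 15 h, and 1 member each was highest at 3 h and 6 h. The mean of 24 h was the lowest in 33 members, that of 0 h in 23, that of 21 h in 20 and that of 18 h in 3. Fitted peaks ran from 9.06 h to 11.99 h with a median of 11.2 h and were unevenly spread, with 15 members before 10 h, 21 from 10 h and 43 from 11 h. The standard error of a peak had a median of 0.51 h, so neighbours within the window were often not resolved. Fitted amplitudes ran from 0.40 to 2.36 on the log2 scale with a median of 0.62, and 13 members reached 1. The highest mean was at least 2-fold above the lowest in 67 members. Every larva of 9 h lay above every larva of 21 h, 12 h later, in 43 of the 79 members, beside 1.43% of all probes; the rule used this contrast, and nothing is read from either share. The window before it, from 6 h to under 9 h, held 48 rhythmic genes and the window after it, from 12 h to under 15 h, held 129, with median amplitudes of 0.60 and 0.63.

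Who belonged to the group depended on the background correction. Under normexp, a model-based correction with an offset of 50 that draws dim levels together, 37 genes met the rule and 32 of them were among the 79. Of the 29 described members 14 stayed. The other 15 fell under the amplitude limit, with amplitudes from 0.18 to 0.37, and they were not the dim clock probes alone: they were bmal1, clock, aurora borealis, GRP78, dimethylglycine dehydrogenase, PFKFB2, catalase, TRADD, Bcl-2-like 12, serine incorporator 3, immunoglobulin superfamily member 5, motile sperm domain-containing protein 2, SPSB3, Homer protein homolog 1 and YTHDC2.

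**Figure D2:**
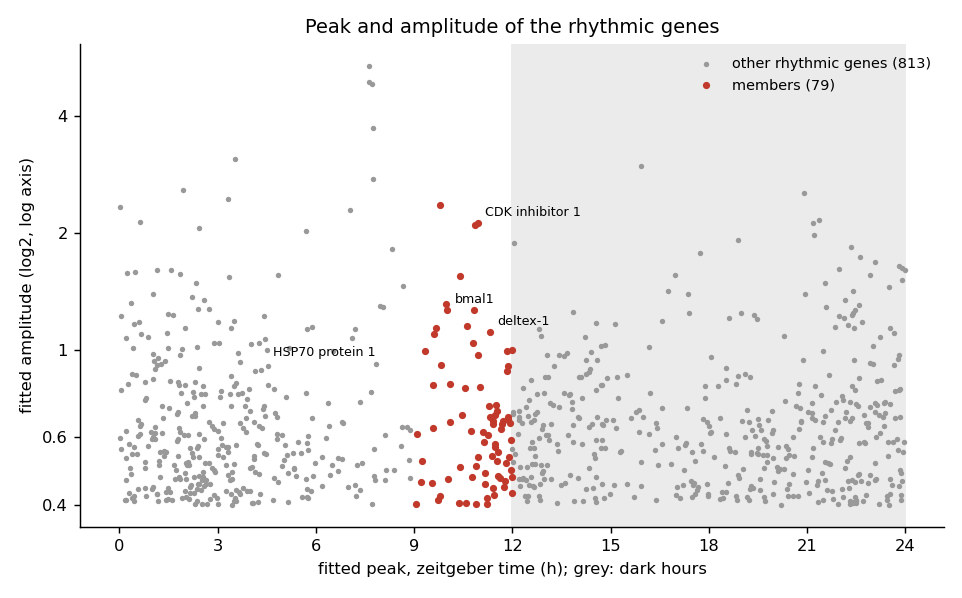
Fitted amplitude (log2, on a log axis) against fitted peak (zeitgeber hours) of the 892 rhythmic genes, with the 79 members in red and dark hours in grey. Members thicken toward 12 h, and CDK inhibitor 1 stands near the top of the window at an amplitude of 2.13.

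Of the core clock genes, bmal1 and clock were members. The probe of bmal1 (clone C2_16398) was dim and was well above background on 34 of the 53 arrays. At 9 h its level was -4.0 at the lowest, -3.61 at the median and -2.09 at the highest, with all 6 larvae well above background. At 0 h its level was -6.90, -6.50 and -6.02 in the same order, and it was not well above background in any of 6 larvae. All larvae of 9 h therefore lay above all larvae of 0 h, and the mean of 9 h was at least 5.70-fold that of 0 h (measured means -3.43 ± 0.68 and -6.47 ± 0.38). This fold sets each larva of 0 h at the lowest signal well above background on its array. The fitted amplitude was 1.27 ± 0.15 (SE, n = 53 larvae), and 0.24 under normexp, and the fitted peak was 10.0 ± 0.5 h.

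The probe of clock (Circadian locomoter output cycles protein kaput, C2_26384), the partner of bmal1, was well above background on 40 arrays. Its level in the 5 larvae of 12 h was -3.59, -3.47, -2.81, -2.80 and -1.31. At 21 h it was -5.997 at the lowest, -5.10 at the median and -3.63 at the highest, and 3 of 6 larvae were well above background there. All larvae of 12 h lay above all larvae of 21 h, by a narrow margin. The measured means differed 4.48-fold, and 4.09-fold with the larvae not well above background raised to the lowest signal that was so on their arrays. The fitted amplitude, 1.05 ± 0.12, was 0.28 under normexp. The fitted peak, 10.8 ± 0.5 h, lay within the summed errors of that of bmal1. Over the 9 means the described members whose course was most like that of bmal1 were aldehyde dehydrogenase 9A1 (Pearson r = 0.96), Bcl-2-like 14 (r = 0.94), serine incorporator 3 (r = 0.94), the enzyme PFKFB2 (r = 0.94) and clock (r = 0.94). Those most like clock were CDK inhibitor 1 (r = 0.99), motile sperm domain-containing protein 2 (r = 0.98), ZNRF2 (r = 0.98), TRADD (r = 0.97) and TMEM214 (r = 0.97). These are descriptions over 9 sampling times among genes selected for a like course.

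The remaining described clock probes were not members. Of 8 probes listed as core clock, 7 were rhythmic. The list holds cryptochrome DASH, which the paper does not name among its core clock genes. The 3 cryptochromes, period 1 and period 2 peaked between 3.00 h and 4.54 h, while period 3 peaked at 23.5 h. Period proteins and most cryptochromes of vertebrates repress the CLOCK and BMAL1 pair. The period 2 probe was well above background on 5 arrays only. No described accessory clock probe was a member either. ROR-gamma, a nuclear receptor that binds the bmal1 promoter in mammals, peaked at 3.68 h. Nocturnin, an enzyme whose RNA cycles in mouse liver, peaked at 0.79 h. The paper gives rev-erba a course similar to that of bmal1 and names nfil3 among genes with a maximum at dusk. Neither was among the described members, and whether a member without a description stands for them is not known.

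Cyclin-dependent kinase inhibitor 1 (C2_1055), a brake on the cell cycle, had the largest amplitude among described members and the highest R2, 0.90, of all 79. Its level was 5.33, 5.40, 5.65, 5.83 and 5.89 in the 5 larvae of 12 h. At 21 h it was 0.95 at the lowest, 1.36 at the median and 1.91 at the highest. The groups were thus far apart, and their means (5.62 ± 0.25, n = 5, and 1.33 ± 0.35, n = 6) differed 19.6-fold. The course had a broad top, with means of 4.53 ± 0.45 at 6 h, 5.23 ± 0.25 at 9 h and 5.23 ± 0.27 at 15 h. From 15 h the mean was 3.45 ± 0.38 at 18 h, and the larvae of these times, like those of 18 h and 21 h, did not overlap. The fitted amplitude was 2.13 ± 0.10 and the peak 10.9 ± 0.2 h.

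**Figure D3:**
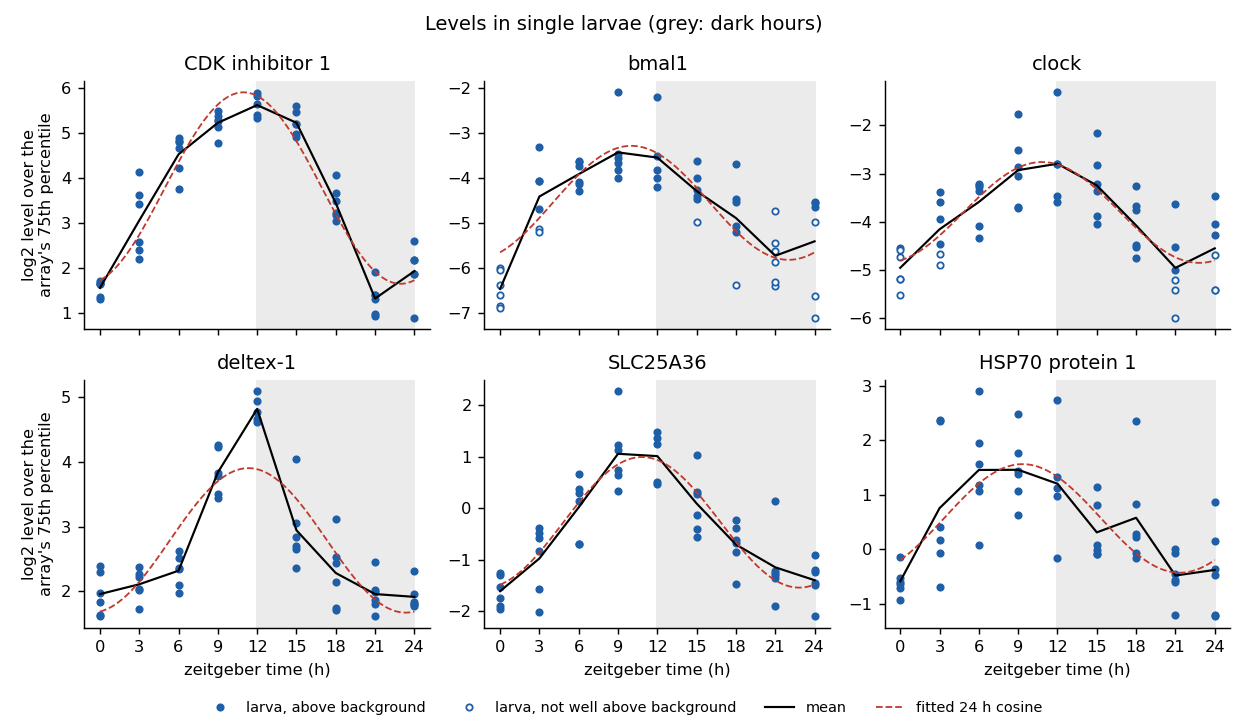
Log2 level of 6 members in each larva (points, open where not well above background), with the mean of each sampling time (black line) and the fitted cosine of 24 h (dashed red) against zeitgeber hour, dark hours in grey. CDK inhibitor 1 has a broad top from 9 h to 15 h, deltex-1 a narrow one at 12 h, and bmal1 is at background in all 6 larvae of 0 h.

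Of 17 probes of genes that act in the second gap phase and mitosis, 14 were rhythmic and 3 were members. The median peak of the list was 13.01 h, and the limit of 12 h in the rule placed any member before it. The members were cyclin-dependent kinase 1-B (CDK1-B, C2_75402), the kinase that drives entry into mitosis, cyclin-A2 (C2_4302), one of its partners, and aurora borealis (C2_33651), which helps to activate the mitotic kinases PLK1 and Aurora A. Their fitted peaks were 11.4 ± 0.7 h, 11.1 ± 0.5 h and 11.8 ± 0.5 h. All 3 had their highest mean at 15 h and their lowest at 24 h. For cyclin-A2 the level at 15 h was 1.19 at the lowest, 1.46 at the median and 1.56 at the highest, and at 24 h it was -0.66, 0.07 and 0.84, without overlap. For CDK1-B the level at 15 h was -0.38, 0.56 and 0.99, and at 24 h it was -2.04, -1.07 and -0.36, so that 1 larva of 24 h lay above the lowest of 15 h. For aurora borealis the level at 15 h was -3.36, -3.0 and -2.53, and at 24 h it was -6.67, -4.45 and -4.07 with 4 of 6 larvae well above background, without overlap. The means differed 2.48-fold for cyclin-A2, 2.98-fold for CDK1-B and 3.67-fold for aurora borealis (3.33-fold with its larvae at background raised as for clock), whose amplitude was 0.88 and under normexp 0.25. The cyclins B1, B2 and B3 peaked at 14.1 h, 13.6 h and 14.1 h, PLK1 at 13.4 h and Aurora A at 13.01 h. All of these had their highest mean at 15 h, as the 3 members did. The earliest rhythmic gene of the list was the kinase Wee1, which inhibits CDK1, at 8.12 h.

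Both cytosolic chaperones among the members, out of 5 probes listed for heat shock proteins, help other proteins to fold. Heat shock 70 kDa protein 1 (HSP70, C2_15999), which binds unfolded stretches of its clients, had the earliest peak among the described members, at 9.33 ± 0.63 h. Its level at 9 h was 0.63 at the lowest, 1.40 at the median and 2.48 at the highest, and at 0 h it was -0.93, -0.62 and -0.14. The groups did not overlap, and the means differed 4.13-fold. Larvae of a sampling time spread widely around their mean, and at 3 h the level ran from -0.70 to 2.38, a range that spanned the means of all 9 times.

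HSP90-alpha 1 (C2_4132), a chaperone of kinases and receptors, peaked at 11.49 ± 0.46 h. Its level at 9 h was -0.35 at the lowest, 0.08 at the median and 0.61 at the highest, and at 24 h it was -2.01, -1.54 and -1.01. These groups did not overlap either, and the means differed 3.08-fold. The other 3 probes of the list (2 DnaJ co-chaperones and heat shock protein beta-8) peaked between 14.03 h and 15.8 h with amplitudes under 0.4. In the endoplasmic reticulum, the chaperone GRP78 (78 kDa glucose-regulated protein, C2_14888), which is the main HSP70 of that compartment, peaked at 11.1 ± 0.5 h, and its mean level at 9 h, -0.64 ± 0.40, was 2.76-fold that at 0 h. TMEM214 (C2_5569), a protein of its membrane, peaked at 11.4 ± 0.3 h with a 2.02-fold range. They were the 2 members among 9 genes listed for folding and the response to unfolded proteins in that compartment. Of the 2, GRP78 is the chaperone. The other 7 genes, calreticulin and endoplasmin among them, had amplitudes under 0.4. None of 14 proteasome probes was a member; their amplitudes stayed at or below 0.24 and their peaks between 12.4 h and 15.5 h.

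Of 5 probes listed for mitochondrial carriers and enzymes, 4 were members, beside 29 of all 277 described probes. SLC25A36 (C2_47279), which carries pyrimidine nucleotides across the inner membrane in humans, stood at 0.33 at the lowest, 0.94 at the median and 2.29 at the highest at 9 h. At 0 h its level was -1.96, -1.63 and -1.25, so that the groups were well apart, and the means differed 6.37-fold. COQ10B (Coenzyme Q-binding protein COQ10 homolog B, C2_18271), which yeast needs in a related form for respiration, had levels of 1.97, 2.14, 1.87, 1.97 and 1.24 in the 5 larvae of 12 h. At 0 h its level was -0.30 at the lowest, -0.26 at the median and -0.07 at the highest, with no overlap, and the means differed 4.15-fold. Its peak, 11.9 ± 0.3 h, was among the latest of the described members. Kidney mitochondrial carrier protein 1 (C2_5889) peaked at 10.1 ± 0.3 h with a 3.25-fold range, and dimethylglycine dehydrogenase (C2_41762), an enzyme of choline breakdown, at 11.6 ± 0.8 h with a 2.29-fold range. The listed probe that was not a member, the calcium-binding carrier SCaMC-2-A, peaked at 4.01 h. Sterol 26-hydroxylase, a mitochondrial enzyme listed under lipid metabolism instead, was not a member either and peaked at 3.02 h. The list held only probes with a description at hand. The paper places other mitochondrial carriers, the uncoupling proteins, in a cluster with its maximum at 0 h. The 4 of 5 therefore describe this short list and not mitochondrial genes at large.

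Further enzymes of metabolism were members as well. PFKFB2 (6-phosphofructo-2-kinase/fructose-2,6-biphosphatase 2, C2_13557), which sets the level of an activator of glycolysis, peaked at 10.9 ± 0.4 h and had a 2.13-fold range, while the glycolytic enzyme 6-phosphofructokinase of liver type peaked at 10.5 h with an amplitude of 0.26, under the limit of the rule. Aldehyde dehydrogenase 9A1 (C2_3814), which oxidises aldehydes, peaked at 10.5 ± 0.4 h with a 2.57-fold range. Catalase (C2_997), which breaks down hydrogen peroxide, peaked at 11.8 ± 0.6 h with a 2.09-fold range and was the 1 member of 6 antioxidant probes. The other 5 peaked between 1.63 h and 8.45 h.

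Of 5 probes listed for apoptosis, 3 were members. Bcl-2-like 14 (C2_8898), a relative of Bcl-2 named for promoting cell death, had levels of -0.39 at the lowest, 0.01 at the median and 0.44 at the highest at 9 h. At 21 h its level was -2.72, -1.92 and -1.46, without overlap, and the means differed 3.93-fold. TRADD (Tumor necrosis factor receptor type 1-associated DEATH domain protein, C2_2326), the adaptor of the tumor necrosis factor receptor, peaked at 11.4 ± 0.5 h with a 1.85-fold range. Bcl-2-like 12 (C2_43110), described as a death inhibitor in mammals, peaked at 11.6 ± 0.8 h and was well above background on 41 arrays. Its range was 2.31-fold, or 2.13-fold with the larvae at background raised as above, since 3 of 6 larvae of its lowest time, 21 h, were well above background. Caspase-3 and caspase-9, the proteases that carry out cell death, peaked at 16.5 h and 17.5 h. The list left out a baculoviral IAP repeat-containing protein (C2_5274), which the paper sets in the same pathways as both caspases. It was rhythmic with a peak at 21.7 h and an amplitude of 0.58, so the share of members holds for this short list only.

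**Figure D4:**
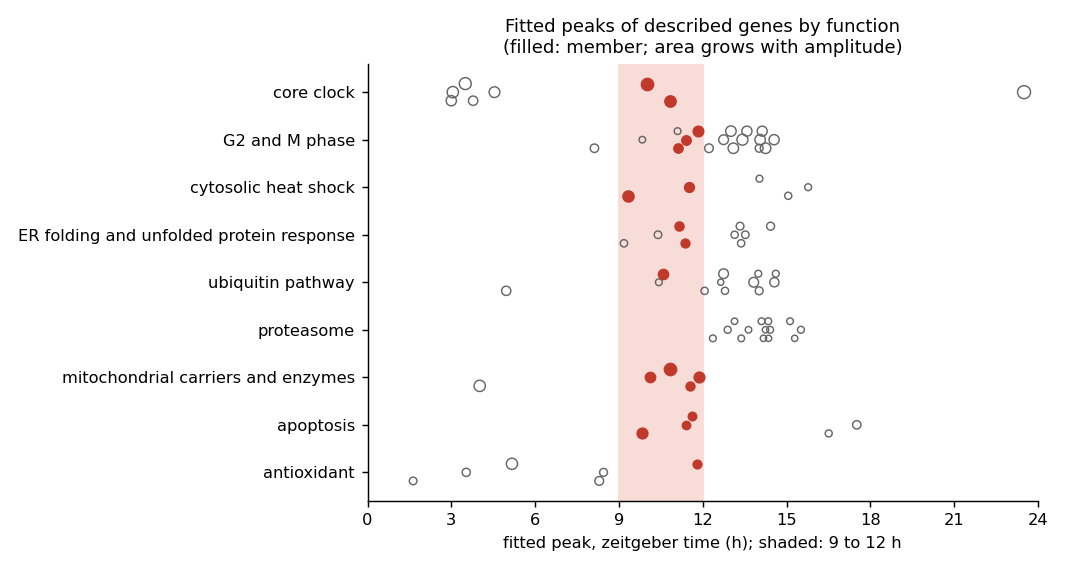
Fitted peak (zeitgeber hours) of the described genes in 9 functional lists, filled in red for members and open for other genes, with a symbol area that grows with the amplitude; the window from 9 h to 12 h is shaded. The 2 filled genes of the core clock list stand apart from 5 open ones near 3 h to 5 h, cryptochrome DASH among them. The 3 filled genes of the second gap phase and mitosis lie before 12 h, as the rule asks of any member.

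Deltex-1 (C2_54553), a ubiquitin ligase known as a regulator of Notch signalling, had a narrow maximum at 12 h. Its level was 4.61, 4.66, 4.77, 4.93 and 5.09 in the 5 larvae of 12 h. At 24 h it was 1.78 at the lowest, 1.82 at the median and 2.32 at the highest, and the means differed 7.44-fold. From a mean of 2.32 ± 0.24 by 6 h it stood at 3.83 ± 0.35 by 9 h and 4.81 ± 0.20 by 12 h, and was back at 2.94 ± 0.59 by 15 h and 2.28 ± 0.53 by 18 h. Larvae of 12 h lay above those of every other time, those of 9 h above all of 6 h, and the means of 0 h, 3 h, 21 h and 24 h lay between 1.92 and 2.11. The top of the fitted cosine lay below all 5 larvae of 12 h.

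The shape of the courses was tested with 2 measures, each fitted in limma over all 13940 probes. Both lie in what the 24 h fit leaves over, which lowers R2, so the rule used them in part. The shares of members and of all probes are given side by side, and nothing is read from their difference. The first was a component of period 12 h beside that of 24 h, and it was called (adjusted p under 0.05) for 14 probes, 0.100% of the array. Of the 79 members 2 passed, deltex-1 (amplitude of the 12 h component 0.53, adjusted p = 0.00039) and CDK inhibitor 1 (amplitude 0.45, adjusted p = 0.027), and at an unadjusted p of 0.05 14 members passed, beside 4.24% of all probes. The 12 h component of deltex-1 had a maximum at 11.3 h, near the top of its 24 h component, and that of CDK inhibitor 1 at 3.53 h and 12 h later. The call of CDK inhibitor 1 was lost without larvae numbered 4 (adjusted p = 0.42), 5 (adjusted p = 0.31) or 6 (adjusted p = 0.22). It was also lost under quantile normalization (adjusted p = 0.065), a normexp background correction (adjusted p = 0.31) and on the 32 arrays of scan 1 alone (adjusted p = 0.93). That of deltex-1 held under each of the 16 alternatives run for it.

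The second measure was any departure of the 9 means from 1 cosine, which 22 probes passed, or 0.158% of those tested. Members that passed were deltex-1 (adjusted p = 8.3e-05) and a probe without a description, C3_c17046 (adjusted p = 0.027). At an unadjusted p of 0.05, 13 members passed, beside 4.35% of all probes. C3_c17046 had the same narrow maximum as deltex-1, with a mean that stood at -3.24 ± 0.39 by 6 h, -1.15 ± 0.51 by 9 h, 0.37 ± 0.26 by 12 h, -2.46 ± 0.91 by 15 h and -3.998 ± 1.34 at 18 h. Its lowest mean, -4.998 ± 0.53 at 24 h, rested on 2 of 6 larvae well above background, so the lower level was in part background. The measured means of 12 h and 24 h differed 41.4-fold, and 41.2-fold with the larvae at background raised as for clock. Its call was lost when larvae numbered 1 (adjusted p = 0.32), 2 (adjusted p = 0.29), 3 (adjusted p = 0.45), 4 (adjusted p = 0.079) or 6 (adjusted p = 0.069) were left out, and under the normexp correction (adjusted p = 0.14). The 9 means of both probes correlated at 0.98, and their deviations from the means of the sampling times correlated at 0.66 over the 53 larvae and at 0.50 over those of scan 1. In the neighbouring windows 0 of 48 genes peaking from 6 h and 1 of 129 peaking from 12 h passed the test of the 12 h component, and 0 and 1 that of the departure. Whether the windows differ in this was not tested.

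Samples of 0 h and of 24 h mark the same hour on successive days, and their difference was tested. A fitted 24 h cosine takes the same value at both, so a gap between them lowered R2. The rule thus leaned toward members without such a gap. No member was called different between them (0 of 79 at an adjusted p of 0.05 in limma), and neither was any other probe (0%). On simulated data this test found 8% of differences of 0.5 on the log2 scale and 52% of those of 1. There, 50 differences of each of 0.5, 1, 1.5 and 2 were set together, which makes the adjusted threshold easier to pass. With few real differences the shares found would be lower. The 0 calls therefore leave room for differences of 0.5 and of 1. The paper reported a few genes as differing between these times. At an unadjusted p of 0.05, 1 member passed, beside 3.22% of all probes. This was bmal1, with a mean 1.06 ± 0.40 (SE) higher at 24 h (unadjusted p = 0.011, adjusted p = 0.96, limma), where 3 of 6 larvae were well above background against 0 of 6 at 0 h. Over the members the difference had a median of -0.03, beside 0.06 for all probes, and was above 0 in 34 and below 0 in 45. Its standard error had a median of 0.22 over the members.

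The 2 members with the most extreme values among those without a description were C2_62435 and C3_c17046. C2_62435 had the largest amplitude of all, 2.36 ± 0.43, with an R2 of 0.38. Larvae of 1 sampling time differed widely in it. Its level ran from -3.01 to 3.13 at 9 h and from -7.60 to 0.52 at 24 h, and these groups overlapped. Its highest mean was at 6 h (1.92 ± 1.42) and its lowest at 24 h (-3.31 ± 3.42). At 24 h 4 of 6 larvae were well above background, so the lower level was in part background. These means differed 37.6-fold, and 25.9-fold with the larvae at background raised as for clock. The standard deviation within sampling times was 2.27 for this gene, the highest of all members, beside a median of 0.38. The 50 members without a description had amplitudes from 0.40 to 2.36 with a median of 0.61, and 7 of them reached 1.

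Other described members outside the functional groups are named so that all 29 are accounted for. The second largest described amplitude, 1.55 ± 0.19, belonged to an uncharacterized protein (C3_c8931), whose level at 9 h was 2.44 at the lowest, 4.89 at the median and 5.20 at the highest. At 0 h its level was -0.26, 1.46 and 2.19, without overlap, and the means differed 9.03-fold. ZNRF2 (C2_4669), a membrane-bound ubiquitin ligase, peaked at 10.6 ± 0.4 h with a 3.10-fold range. It was the 1 member of 12 probes listed for the ubiquitin pathway, a list that does not hold deltex-1. Serine incorporator 3 (C2_48154), a membrane protein, had a 3.42-fold range and peaked at 10.1 ± 0.7 h. Immunoglobulin superfamily member 5 (C2_8172), an adhesion protein, peaked at 11.9 ± 0.6 h, motile sperm domain-containing protein 2 (C2_2814) at 11.2 ± 0.3 h and the SOCS box protein SPSB3 (C2_33191) at 11.6 ± 0.8 h. Homer protein homolog 1 (C2_83951), a scaffold of synapses, peaked at 11.45 ± 0.68 h and the RNA helicase YTHDC2 (C2_22441) at 9.78 ± 0.59 h. The highest and lowest means of these last 5 differed between 1.87-fold and 2.13-fold.

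Larvae of the same sampling time were compared with each other, a spread that the rule used through R2 only. A small spread raises R2, so the standard deviations that follow are not free of the choice of members. The standard deviation within sampling times had a median of 0.38 over the members and 0.39 over the 11722 probes well above background on at least 27 arrays. Deviations of a larva from the mean of its sampling time correlated between pairs of members with a median of 0.03 (upper quartile 0.25), beside 0.01 (upper quartile 0.24) for all those probes. With the lowest and highest 5% of pairs left aside, the pairs of members ran from -0.39 to 0.55 and those of all those probes from -0.54 to 0.57, and 6.82% and 7.85% of pairs lay over 0.5. Correlations of this size were thus no more frequent among members than among other probes. No p is given for these correlations, since all values of a larva share 1 array and its scaling.

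Values of some pairs of members, picked after they were seen, are given as a description and are not particular to the members. CDK1-B and cyclin-A2 deviated together (r = 0.76 over 53 larvae, 0.53 over the 32 of scan 1), as did HSP70 and HSP90-alpha 1 (r = 0.54 and 0.48) and clock with serine incorporator 3 (r = 0.78 and 0.67). CDK inhibitor 1 and CDK1-B deviated in opposite directions (r = -0.68 and -0.62), although their 9 means ran together (r = 0.93). CDK inhibitor 1 and cyclin-A2 did so too (r = -0.61 and -0.33). The deviations of bmal1 and clock correlated at 0.49 over all larvae and at 0.20 within scan 1. Aurora borealis went with CDK1-B (r = 0.50 and 0.61) and cyclin-A2 (r = 0.45 and 0.40). GRP78 correlated little with HSP90-alpha 1 (r = 0.04) or HSP70 (r = 0.16) over all larvae, but more within scan 1 (r = 0.31 and 0.54). SLC25A36 and kidney mitochondrial carrier protein 1 correlated at -0.16 over all larvae and at -0.43 within scan 1. Members of unlike function correlated too: CDK1-B with TRADD (r = 0.79 and 0.36) and with serine incorporator 3 (r = -0.75 and -0.46). The brightness of an array, its 75th percentile, moved with some of these deviations (r = -0.44 for CDK1-B, -0.49 for cyclin-A2, -0.37 for TRADD and 0.42 for serine incorporator 3). It was 0.24 for clock, 0.38 for bmal1 and 0.09 for CDK inhibitor 1. For the other members of these pairs it lay between -0.23 (HSP90-alpha 1) and 0.23 (GRP78). The part of brightness in the correlations was not tested.

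**Figure D5:**
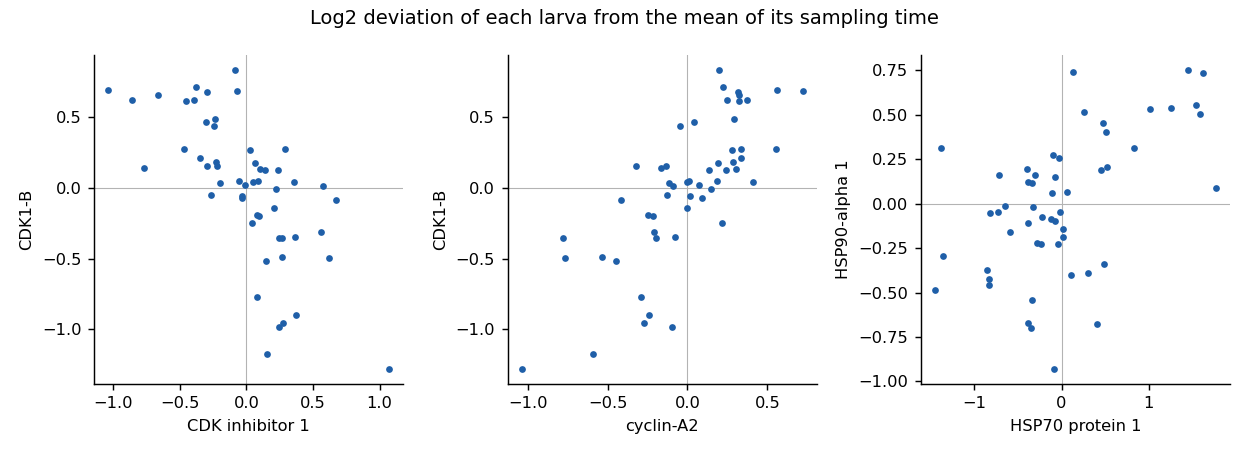
Deviation of each larva from the mean of its sampling time (log2) for 3 pairs of members, 1 point per larva. CDK1-B lies low where CDK inhibitor 1 lies high (r = -0.68), while cyclin-A2 and CDK1-B (r = 0.76) and HSP70 and HSP90-alpha 1 (r = 0.54) go the same way.

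Values ran on across the limits of the group. The members nearest to a limit had an amplitude of 0.402, an R2 of 0.305, 30 arrays well above background, a peak at 9.06 h and a peak at 11.99 h. The nearest genes left out had 0.3996, 0.299, 23 arrays, 8.88 h and 12.0 h. With all else met, 125 genes failed on the amplitude alone, 35 on R2 alone and 2 on background alone.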

How the data were processed

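Levels were measured on one-colour Agilent arrays, 1 whole larva per array, 53 arrays in 9 sampling times taken from the sample labels. The intensity values deposited by the authors are the scanner software's processed signal (Agilent Feature Extraction 11.5.1.1), already background-subtracted. The authors also deposited a table of log2 values with the same scaling, in which every probe has a median of 0; it was used as an alternative. Of 15744 spots, 536 control spots were left out, as were 974 outlier spots over all arrays (827 probe values then missing); no spot used was saturated. The rule given for the group is silent on outlier spots. Log2 signals minus the array's 75th percentile were averaged per probe code in R 4.3.3 with the data.table package, version 1.17.8. A probe counted as well above background where a spot of it was so marked (for probes with several spots, as many or more spots with the mark than without).

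Tests were made in limma 3.58.1 with Benjamini-Hochberg adjustment over 13940 probes: 24 h minus 0 h in a model of 9 groups (44 residual degrees of freedom), the pair of 12 h terms beside the 24 h terms, and the 6 remaining terms of the 9 means. They were tested on simulated data before use. Precision is limited by the number of arrays and, for dim probes, by background. P-values set each difference or term against the residual spread of its model. Larvae of the same tank, which the paper reports at each time, were treated as independent.

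The members and the functional lists were chosen with earlier results of these data known. Named genes are the members in a list with at least 3 members, the clock genes among the members, the 15 described members of largest amplitude, the 2 codes given and probes past a test; 10 genes of largest amplitude have their levels in larvae. The remaining described members, and the larvae values of HSP90-alpha 1, CDK1-B and cyclin-A2, were added after values were seen. Alternatives were other background corrections and scalings, outlier spots kept, slide or replicate number as a block, each replicate number left out, other limits and a filter on dim probes; scan 1 alone was added after seeing the data. Normexp was set out for the mean signal, which was not used here, and was run on the median signal. No probe code of the array was found among RefSeq's genes, so no coordinates or sequences are given. Figures were drawn with matplotlib.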

Additional observations from a re-analysis of the deposited data

Results flagged for a closer look

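Dixon's test was applied to the larvae of each sampling time for the 29 described members and for the mean of all 79, which made 270 groups, and 14 of them held a larva past the critical value. This is 5.19% of the groups, and chance alone gives about 1 in 20. The levels below are log2 values of the larva that stood apart.

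Single larvae stood high in bmal1 at 9 h (larva 6, -2.09, next -3.46), SLC25A36 at 21 h (larva 6, 0.14, next -1.21), deltex-1 at 24 h (larva 4, 2.32, next 1.97), COQ10B at 21 h (larva 3, 1.21, next 0.56), GRP78 at 24 h (larva 6, -1.20, next -1.66), PFKFB2 at 24 h (larva 2, -1.56, next -2.50) and Homer protein homolog 1 at 6 h (larva 1, -2.44, next -2.99). Single larvae stood low in the uncharacterized protein C3_c8931 at 9 h (larva 5, 2.44, next 4.44) and at 18 h (larva 1, -0.61, next 2.54), PFKFB2 at 0 h (larva 5, -2.88, next -2.63), Bcl-2-like 12 at 12 h (larva 1, -4.04, next -3.79) and at 18 h (larva 4, -5.68, next -4.15), and TRADD at 24 h (larva 6, -2.58, next -1.87). In the mean of the 79 members, larva 6 of 0 h stood low (-0.72, next -0.61).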

How the results depend on the processing

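The group of 79 members depended most on the background correction: under normexp with an offset of 50 it held 37 genes, 32 of them shared, and 15 of the 29 described members left it, all with amplitudes under the limit (from 0.18 to 0.37; bmal1 0.24, clock 0.28, aurora borealis 0.25). Under the other alternatives it held 56 to 112, within 1.5 times 79. Without replicate numbers 1 to 6 in turn it held 69 to 91, of which 61 to 69 were shared. The median amplitude of the members stayed between 0.39 and 0.64 and the median peak between 10.8 h and 11.54 h. No peak of a described member moved by more than the spread between larvae put in hours, and the largest move was 2.58 h. That limit was loose, and several described members left the window under some alternative. The latest peaks were 14.2 h for Bcl-2-like 12, 13.7 h for aurora borealis, 13.4 h for SPSB3 and 12.9 h for Homer protein homolog 1. Clock reached 12.5 h, dimethylglycine dehydrogenase 12.5 h, catalase 12.4 h, immunoglobulin superfamily member 5 12.2 h and PFKFB2 12.03 h. On the early side, HSP70 reached 8.85 h. The number of members with a 12 h component, 2, was 1 under normexp and 1 on scan 1 alone, 3 on the median signal minus background, and 1 to 2 when replicate numbers were left out. The number with a course other than 1 cosine, 2, was 1 under normexp, 3 under median centring, with the slide block and on scan 1 alone, and 1 to 2 when replicate numbers were left out; deltex-1 was called in all of these. Between 24 h and 0 h 0 members were called under each alternative.

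The labels give replicate numbers no shared source, and not every same-numbered pair correlated over 0.1, so the numbers were not taken to pair the larvae. Deviations of same-numbered arrays correlated from -0.21 to 0.67 with a median of 0.19, beside -0.05 for other numbers and 0.24 for arrays of 1 slide. Of 53 arrays, 23 correlated best with one of their own number. Same-numbered arrays often shared a slide: slide 1 held only arrays numbered 1 and slide 7 only arrays numbered 6. A source shared by number and an effect of the slide cannot be told apart, and leaving out a number partly left out a slide. With the replicate block the group held 89 genes, 78 of them shared, and 2 members passed the test of the 12 h component, 3 that of the course and 0 that of 24 h against 0 h. Over all probes the calls for the course were 45 with the replicate block and 40 with the slide block in place of 22, and 8 under normexp; those for the 12 h component were 21 with the slide block and 5 under normexp in place of 14. Dim probes such as bmal1 and clock limit what can be said of low levels.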
